A study of Mus musculus with 7 samples.

Results

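The 41 genes described here make up much of the machinery of mitosis, from the cyclins that start it to the proteins that divide the cell. They were taken by gene symbol from a list of G2/M and spindle genes, chosen with earlier results of these data known. The array carried probe sets for 38 of the 41, with 70 probe sets among the 22690 of the array. The 38 are among 12393 named genes with a probe set. Ccnb1, Cdca8 and Espl1 were not named by the array annotation and were not analysed here. All 38 exceeded the floor for testing, a signal above the pooled median of 45.6 on at least 1 array. Of these, 28 did so on all 7 arrays. Cenpe passed only through the array taken after TSA removal, and Ttk through 3 arrays of p53-Dnmt1-null cells.

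The samples were mouse embryonic fibroblasts (MEF), each hybridised to 1 of 7 Affymetrix arrays with 1 array per group. Every culture lacked the tumour suppressor p53, including those used as controls. The p53-Dnmt1-null cells (p53-/- Dnmt1-/-) also lacked Dnmt1, the enzyme that copies DNA methylation after replication, and were sampled at 24 h and 48 h of TSA, 2 weeks after its removal, and without treatment. The p53-null cells (p53-/-) were sampled at the same TSA times and without treatment. TSA (trichostatin A) inhibits histone deacetylases; the sources used here do not give its dose, the length of exposure before removal or the age of the embryos.

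Entry into mitosis is driven by the kinase CDK1 bound to cyclins A and B. Aurora and Polo kinases and kinesin motors then build the spindle, the checkpoint holds anaphase until every kinetochore is attached, and the anaphase-promoting complex ends mitosis by marking cyclin B and securin for destruction. Most of these genes are transcribed only from late S phase to mitosis, under repression and activation by the DREAM and MuvB complexes, B-Myb (Mybl2), FoxM1 and NF-Y. Their RNA in a culture is therefore widely read as a mark of proliferation. In a bulk array, fewer cells in this phase and less RNA per cell cannot be told apart.

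The promoters of these genes are shown because nearly all members were lower together with TSA. CHR elements (TTTGAA or TTTAAA) are bound by MuvB complexes and CCAAT boxes by NF-Y. Each sequence is from RefSeq (GRCm38.p6), runs 5′ to 3′ along the gene's strand from 100 bases before to 20 after the start, and has motif matches on either strand in capitals (ATTGG and TTCAAA are the reverse-strand forms). The first 5 genes had lower signals in all 4 TSA arrays, and Pttg1, the last, had higher signals in all 4.
Ccnb2, chr9:70421535-70421654 (minus strand): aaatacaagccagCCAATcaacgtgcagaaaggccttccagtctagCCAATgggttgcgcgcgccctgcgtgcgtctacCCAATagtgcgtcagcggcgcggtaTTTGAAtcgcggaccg
Cdk1, chr10:69352893-69353012 (minus strand): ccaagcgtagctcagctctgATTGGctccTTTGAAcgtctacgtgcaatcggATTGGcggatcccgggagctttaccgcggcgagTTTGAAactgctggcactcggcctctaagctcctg
Cdc20, chr4:118437324-118437443 (minus strand): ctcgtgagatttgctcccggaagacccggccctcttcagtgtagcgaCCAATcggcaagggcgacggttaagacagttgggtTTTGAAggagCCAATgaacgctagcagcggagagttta
Ube2c, chr2:164769829-164769948 (plus strand): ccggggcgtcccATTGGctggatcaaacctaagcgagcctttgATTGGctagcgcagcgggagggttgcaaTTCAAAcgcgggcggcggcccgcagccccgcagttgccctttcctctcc
Kif11, chr19:37376282-37376401 (plus strand): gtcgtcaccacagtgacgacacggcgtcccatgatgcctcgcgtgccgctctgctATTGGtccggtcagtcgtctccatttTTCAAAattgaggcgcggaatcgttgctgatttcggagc
Pttg1, chr11:43425962-43426081 (minus strand): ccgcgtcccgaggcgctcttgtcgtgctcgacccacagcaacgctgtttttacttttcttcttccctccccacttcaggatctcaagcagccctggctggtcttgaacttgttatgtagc
In these windows Ccnb2 held CCAAT boxes at regular spacing with TTTGAA just after the start, and Pttg1 held no match.

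Promoters of 35 of the 41 genes were in the RefSeq table, 300 bases each, 1 per gene, the first listed. Any other start sites of a gene were not searched. TTTGAA on either strand was present in 25 of 35, or 71.4%, against 18.1% of 27025 promoters of all genes. CCAAT was present in 29 of 35, or 82.9%, against 37.9% of all promoters, and 20 of 35 held 2 or more, against 12.2%. TTTAAA was present in 8 of 35, or 22.9%, against 13.2%. Both TTTGAA and CCAAT were found in 65.7% of the members' promoters and in 7.12% of all promoters. The motifs were counted separately, with overlapping matches kept. Tacc3, Mad2l1 and Pttg1 had no match to any of the motifs in the promoter used. The signals of Tacc3 and Mad2l1 were lower in every TSA array and those of Pttg1 were higher. A match is a run of letters, and no test was made.

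**Figure D1:**
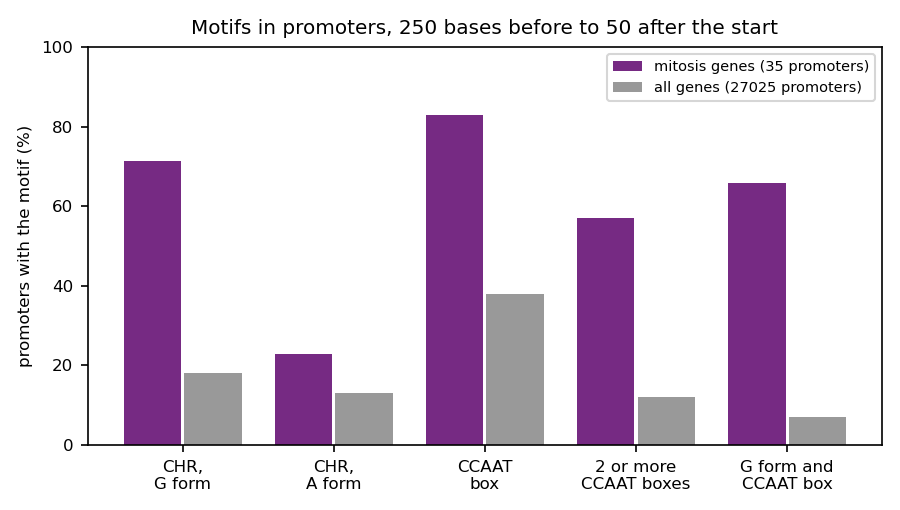
Share of promoters (%) that hold each motif, for 35 mitosis genes (left bars) and 27025 promoters of all genes (right bars). The G form of the CHR element is in 71.4% of the members' promoters against 18.1% of all, and the CCAAT box in 82.9% against 37.9%.

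The signals are scaled MAS5 intensities, and comparisons use log2(signal + 11.4), where 11.4 is the pooled 25th percentile. Median signals of the arrays lay between 41.9 and 48.8. Dnmt1 itself read 206.5, 74 and 109.5 in p53-Dnmt1-null cells at 0, 24 and 48 h and 123.2 after removal, against 695.6, 384.4 and 308.2 in p53-null cells; whether its probe set lies in the deleted part of the gene is not known here. The fibroblast label was not borne out evenly: of 13 fibroblast markers 11 were lower in p53-Dnmt1-null cells by limma. All 11 epithelial and mesothelial markers above the floor were higher, where 19.4% of all features were called each way. Krt18 read 2916.7, 4359.4 and 3078.9 in p53-Dnmt1-null cells and 22.6, 37.4 and 21.3 in p53-null cells. Of the 14 epithelial and mesothelial markers listed, 12 to 13 were below the floor on each p53-null array. Most of the 11 thus passed it only through p53-Dnmt1-null arrays, and their direction was largely set by the filter. Of the fibroblast markers, 3 were below the floor on each p53-Dnmt1-null array. Summed over each list, fibroblast markers came to 8768 to 15164.7 in p53-Dnmt1-null cells and 32553 to 39356.4 in p53-null cells, and epithelial and mesothelial markers to 11080.4 to 19581.7 and 203.2 to 503.7. The p53-Dnmt1-null 24 h array had the highest 18S rRNA control signal, 2549.1, against 93.6 to 1292.1 on the other 6 arrays. Ratios of 3′ to 5′ signal stayed between 1.06 and 1.23 for actin and 0.834 and 0.906 for Gapdh. The part of these differences in the results below was not tested.

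Mitosis genes had lower signals with TSA in both genotypes, and 37 of the 38 lay below the untreated value when 24 h and 48 h were averaged in each genotype. In p53-Dnmt1-null cells the median member was at 34.4% of its untreated signal after 24 h and at 72.6% after 48 h. In p53-null cells it was at 62.8% and 34.3%. On the log2 scale the members' medians were -1.46 and -0.44 in p53-Dnmt1-null cells and -0.64 and -1.28 in p53-null cells, while the medians of all 9390 features stayed between -0.03 and 0.03. In all 4 TSA arrays 35 members were below untreated, against 18.9% of all features. The exceptions were Pttg1, Cenpe and Prc1.

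**Figure D2:**
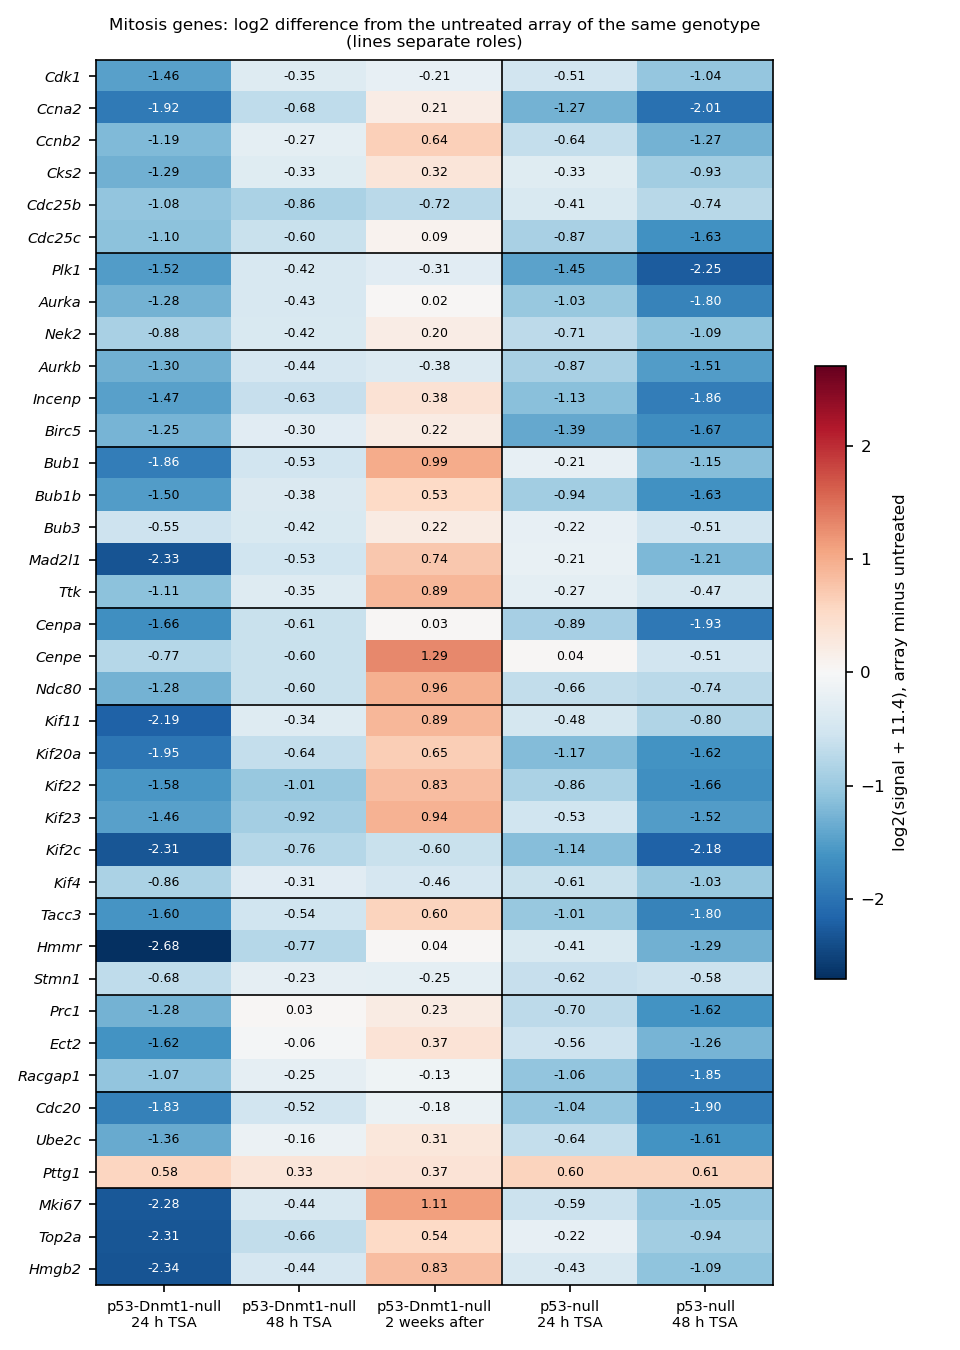
Log2 difference of each array from the untreated array of the same genotype, for the 38 mitosis genes (rows, ordered by role) in p53-Dnmt1-null cells (left 3 columns) and p53-null cells (right 2 columns). The largest decreases are at 24 h in p53-Dnmt1-null cells, down to -2.68 for Hmmr, and at 48 h in p53-null cells, down to -2.25 for Plk1.

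No member passed the test for TSA. Averaged over genotypes (limma, 4 TSA arrays against 2 untreated, Benjamini-Hochberg adjustment over 9390 features), 0 members were called, where 0.0319% of all features were called higher and 0 lower, and the lowest adjusted p among them was 0.135, for Kif22 at -1.28 ± 0.27 (SE). At an unadjusted p under 0.05, 32 of the 38 were lower and 1 was higher, where 7.43% of all features were lower and 7.47% higher. Within a genotype 10 members were lower and 0 higher at that p in p53-Dnmt1-null cells, where 2.79% of all features were lower and 5.05% higher. In p53-null cells 17 were lower and 1 higher, where 3.98% and 4.53% were. None passed adjustment in either genotype, and no other feature did. The members' median was -1.04, against 0.01 for all features. This test takes any 24 h to 48 h difference within a genotype for noise, and the members differed in opposite ways between these times. With the 48 h arrays alone 17 members were called lower, where 1.74% of all features were, and with the 24 h arrays alone 11 were, where 0.628% were. These fits have fewer residual degrees of freedom than the pooled test. Their only error term is the difference in TSA response between the genotypes at that time.

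By size, 32 members were at least 2-fold lower at 24 h in p53-Dnmt1-null cells, against 5.10% of all features, and 1 at 48 h, against 1.00%. In p53-null cells 10 were at least 2-fold lower at 24 h, against 1.85%, and 28 at 48 h, against 3.16%. No member was 2-fold higher in any TSA array, where 6.02% and 2.94% of all features were at 24 h and 48 h in p53-Dnmt1-null cells and 3.38% and 4.75% in p53-null cells. At both times together, 1 member was at least 2-fold lower in p53-Dnmt1-null cells (Kif22), against 0.341% of all features, and 10 in p53-null cells, against 0.990%. With the offset at the pooled median these counts were 0 and 4, and with a gene's probe sets averaged 0 and 5. No member was 2-fold higher at both times, where 1.87% of all features were in p53-Dnmt1-null cells and 1.54% in p53-null cells. A pair of single arrays has no replicate check. Across the 38 genes, the p53-Dnmt1-null 24 h difference and the p53-null 48 h difference had a Pearson r of 0.50 and a Spearman rho of 0.38, and r was 0.28 without Pttg1. Over all features r was 0.18. These describe genes measured together on 4 arrays, and genes are not independent replicates.

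CDK1, its cyclins and its activators had lower signals at every TSA time. Ccna2, cyclin A2, read 1122.6, 288.4 and 695.4 in p53-Dnmt1-null cells at 0, 24 and 48 h, against 630.9, 255 and 147.7 in p53-null cells. It was lower in every TSA array than in the untreated array of its genotype, and TSA differed from untreated by -1.47 ± 0.35 (SE, limma adjusted p = 0.145). Ccnb2, cyclin B2, read 635.3, 271.5 and 525.5 in p53-Dnmt1-null cells and 375.5, 237.2 and 148.9 in p53-null cells. Cdk1, the mitotic kinase itself, read 1241.1, 443.1 and 971.4 in p53-Dnmt1-null cells and 1111.3, 778.8 and 533.6 in p53-null cells. Its p53-Dnmt1-null signal at 48 h differed from untreated by -0.35 on the log2 scale, and its p53-null signal by -1.04. Cks2, a small subunit that docks on CDK1, read 1117, 450.8 and 884.9 in p53-Dnmt1-null cells and 801.4, 635 and 414.4 in p53-null cells. The CDC25 phosphatases remove the inhibitory phosphates from CDK1. Cdc25c read 105.9, 43.4 and 65.8 in p53-Dnmt1-null cells and 76.1, 36.5 and 16.9 in p53-null cells. It differed by -1.10 and -0.60 at 24 h and 48 h in p53-Dnmt1-null cells and by -0.87 and -1.63 in p53-null cells. The Cdc25c signal was below the floor at 24 h in p53-Dnmt1-null cells and at both TSA times in p53-null cells. Cdc25b read 257.9, 116.4 and 136.7 in p53-Dnmt1-null cells and 227.9, 168.4 and 132 in p53-null cells. It differed by -1.08 and -0.86 and by -0.41 and -0.74, so unlike Cdk1 it stayed near its 24 h level in p53-Dnmt1-null cells.

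The mitotic kinases had the deepest group median in p53-null cells at 48 h, -1.80, against -0.42 at that time in p53-Dnmt1-null cells. Plk1, the Polo kinase that matures centrosomes and drives mitotic entry, read 621.6, 209.7 and 460.8 in p53-Dnmt1-null cells at 0, 24 and 48 h, against 581.6, 205.4 and 113.4 in p53-null cells. Its 48 h signal in p53-null cells was the lowest of its 6 values at these times, with a log2 difference of -2.25, against -0.42 in p53-Dnmt1-null cells. Aurka, which acts at spindle poles, read 527, 210.6 and 388.1 in p53-Dnmt1-null cells and 348.2, 164.8 and 91.6 in p53-null cells. Nek2, which splits the centrosome pair, read 72, 33.8 and 51.1 in p53-Dnmt1-null cells and 56.8, 30.4 and 20.6 in p53-null cells, dim signals throughout. TSA effects averaged over genotypes were -1.41 ± 0.37, -1.14 ± 0.31 and -0.77 ± 0.25 for Plk1, Aurka and Nek2 (SE, limma adjusted p = 0.167, 0.189 and 0.233).

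Subunits of the chromosomal passenger complex, which corrects wrong spindle attachments and directs cytokinesis, had lower signals on all 4 TSA arrays. Birc5, survivin, read 802.9, 330.1 and 652 in p53-Dnmt1-null cells at 0, 24 and 48 h, against 621.1, 230.2 and 186.7 in p53-null cells. Incenp, the scaffold of the complex, read 747.3, 261.8 and 479.1 in p53-Dnmt1-null cells and 443.3, 196.3 and 113.9 in p53-null cells. Aurkb, its kinase, read 276.9, 105.3 and 200.5 in p53-Dnmt1-null cells and 183.9, 95.6 and 57.1 in p53-null cells. In p53-Dnmt1-null cells all 3 were lowest at 24 h and in p53-null cells all 3 were lowest at 48 h. Averaged over genotypes Incenp differed by -1.27 ± 0.30 (SE, limma adjusted p = 0.145).

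Spindle checkpoint genes were less uniform. Mad2l1, which inhibits the anaphase-promoting complex at unattached kinetochores, read 639.7, 117.7 and 438.9 in p53-Dnmt1-null cells at 0, 24 and 48 h, against 271.3, 233.8 and 110.8 in p53-null cells. Bub1b (BubR1), part of the same inhibitory complex, read 444, 149.3 and 338.1 in p53-Dnmt1-null cells and 294.6, 147.8 and 87.3 in p53-null cells. Bub1, a checkpoint kinase, read 143.8, 31.4 and 96.4 in p53-Dnmt1-null cells and 59.4, 49.7 and 20.5 in p53-null cells. For Mad2l1 and Bub1 the 24 h value in p53-null cells differed from untreated by -0.21 and -0.21, and the 48 h value by -1.21 and -1.15. Ttk (Mps1), the kinase that starts the checkpoint signal, read 86.3, 33.9 and 65.4 in p53-Dnmt1-null cells and 44.4, 34.9 and 29 in p53-null cells, mostly near or below the floor. Bub3, a checkpoint protein that most tissues express, read 1010.6, 684.3 and 754.4 in p53-Dnmt1-null cells and 980.7, 838.2 and 683.9 in p53-null cells, and its TSA difference of -0.43 ± 0.17 was the smallest of the 37 that were lower.

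Of the centromere genes, Cenpa, the histone H3 variant that marks centromeres, read 744.8, 227.7 and 484.4 in p53-Dnmt1-null cells at 0, 24 and 48 h, against 507.7, 269.1 and 124.7 in p53-null cells. Ndc80, the microtubule coupler of the outer kinetochore, read 78.2, 25.6 and 47.6 in p53-Dnmt1-null cells and 61.1, 34.5 and 32.1 in p53-null cells. Cenpe, a kinetochore kinesin, stayed below the floor on these 6 arrays, between 8.4 and 22.3, and its differences cannot be read as levels. Its 24 h signal in p53-null cells was 17.9, against 17.1 untreated.

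Kinesin motors had a group median of -1.76 at 24 h in p53-Dnmt1-null cells, deeper than that of every other role except the chromosome genes described last. Kif2c (MCAK), which depolymerises microtubules at centromeres, read 521.4, 96 and 302.4 in p53-Dnmt1-null cells at 0, 24 and 48 h, against 270.8, 116.3 and 50.9 in p53-null cells, and its averaged TSA difference of -1.60 ± 0.43 (SE, limma adjusted p = 0.18) was the largest of all members. Kif11 (Eg5), which pushes spindle poles apart, read 148.5, 23.6 and 115.1 in p53-Dnmt1-null cells and 53.2, 35 and 25.6 in p53-null cells. The Kif11 signal was below the floor at 24 h in p53-Dnmt1-null cells and at both TSA times in p53-null cells. Kif20a (MKlp2), which carries the passenger complex to the midzone, read 473, 114.4 and 300.5 in p53-Dnmt1-null cells and 233.8, 97.9 and 68.2 in p53-null cells. Kif22, the chromokinesin Kid, read 709.4, 230.3 and 345.8 in p53-Dnmt1-null cells and 512.7, 277.8 and 154.4 in p53-null cells; no other member stayed at least 2-fold lower at 48 h in p53-Dnmt1-null cells. Kif23 (MKlp1), of the central spindle, read 288.8, 97.6 and 147.1 in p53-Dnmt1-null cells and 177.7, 119.8 and 54.6 in p53-null cells. Kif4, another chromokinesin, differed least of the 6 in the average, by -0.70 ± 0.24, and read 121.8, 62.1 and 95.8 in p53-Dnmt1-null cells and 126.6, 79.1 and 56.2 in p53-null cells.

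Among spindle microtubule proteins, Hmmr, which organises spindle poles, read 346.8, 44.5 and 198.3 in p53-Dnmt1-null cells at 0, 24 and 48 h, against 131.8, 96.7 and 47.2 in p53-null cells. Its signal of 12.8% of untreated at 24 h in p53-Dnmt1-null cells was the lowest share of any member on any array, yet its averaged difference of -1.29 ± 0.50 had an adjusted p of 0.28; its 24 h and 48 h signals in p53-Dnmt1-null cells lay far apart. Tacc3, which stabilises spindle fibres, read 214.3, 63.2 and 143.7 in p53-Dnmt1-null cells and 155.2, 71.1 and 36.3 in p53-null cells. Stmn1 (stathmin), which destabilises microtubules and is abundant in many dividing cells, read 2119, 1317.7 and 1800.9 in p53-Dnmt1-null cells and 1671.2, 1083.5 and 1114.6 in p53-null cells, and it was the brightest member by its mean over all arrays and among the least shifted, at -0.53 ± 0.16.

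The cytokinesis genes came back furthest by 48 h in p53-Dnmt1-null cells, with a group median of -0.06, against -1.62 in p53-null cells. Ect2, which activates RhoA at the division plane, read 165.5, 46.2 and 158.4 in p53-Dnmt1-null cells at 0, 24 and 48 h, against 87.2, 55.5 and 29.8 in p53-null cells. Prc1, which bundles midzone microtubules, read 325.8, 127.1 and 332.4 in p53-Dnmt1-null cells and 425.2, 257.6 and 130.7 in p53-null cells, so its p53-Dnmt1-null signal at 48 h was no lower than untreated. Racgap1, the partner of Ect2 and Kif23, read 585.6, 273.4 and 491.7 in p53-Dnmt1-null cells and 432.5, 202.1 and 111.5 in p53-null cells. For Racgap1 the 24 h values differed from untreated by about the same in both genotypes, -1.07 and -1.06, and the 48 h values by -0.25 and -1.85.

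Anaphase genes split. Cdc20, the activator of the anaphase-promoting complex, read 1316, 362.2 and 917.2 in p53-Dnmt1-null cells at 0, 24 and 48 h, against 994.1, 477 and 258.6 in p53-null cells, and Ube2c, its ubiquitin-conjugating enzyme, read 1583.9, 609.9 and 1418.8 in p53-Dnmt1-null cells and 1125.8, 719.7 and 360.1 in p53-null cells. Pttg1, securin, which holds separase inactive until anaphase, read 1069.4, 1606.5 and 1351 in p53-Dnmt1-null cells and 1125, 1705.6 and 1717.9 in p53-null cells. It was higher in all 4 TSA arrays, by 0.58 and 0.33 in p53-Dnmt1-null cells and 0.60 and 0.61 in p53-null cells, and its averaged difference was 0.53 ± 0.14 (SE, limma adjusted p = 0.18). A dimmer Pttg1 probe set read 149.3, 260.4 and 215.0 in p53-Dnmt1-null cells and 148.0, 289.9 and 297.8 in p53-null cells, also higher in all 4. A further one stayed at or below 29.4 on every array. How the Pttg1 probes share sequence with related genes was not tested.

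Genes of chromosome structure and proliferation had the deepest group median of any role at 24 h in p53-Dnmt1-null cells, -2.31. Mki67, the Ki-67 protein that coats mitotic chromosomes, read 309, 54.4 and 225 in p53-Dnmt1-null cells at 0, 24 and 48 h, against 249.8, 162.6 and 114.7 in p53-null cells. Top2a, which untangles sister DNA, read 910.8, 174.5 and 571.5 in p53-Dnmt1-null cells and 351.2, 299.5 and 178.1 in p53-null cells. Hmgb2, a DNA-bending protein high in dividing cells, read 813.6, 151.4 and 595.4 in p53-Dnmt1-null cells and 239.7, 175.5 and 106.7 in p53-null cells. At 24 h they differed from untreated by -2.28, -2.31 and -2.34 in p53-Dnmt1-null cells. In p53-null cells the same differences were -0.59, -0.22 and -0.43, and the 24 h signals of all 3 lay below the p53-null 24 h signals in p53-Dnmt1-null cells.

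Of 25 further probe sets of these genes above the floor, for 17 genes, 25 had the same direction as the tested probe set with TSA in p53-Dnmt1-null cells and 23 in p53-null cells.

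The course over time ran in opposite ways in the genotypes. From 24 h to 48 h the members' median difference was 1.01 in p53-Dnmt1-null cells and -0.69 in p53-null cells, and 36 of 38 members were higher at 48 h than at 24 h in p53-Dnmt1-null cells and lower in p53-null cells, against 19.4% of all features. Stmn1 and Pttg1 did not follow. In p53-Dnmt1-null cells 19 members were at least 2-fold higher at 48 h than at 24 h, against 3.13% of all features, and 0 were 2-fold lower, against 2.50%; in p53-null cells 3 were at least 2-fold lower, against 2.17%. Those 3, Mad2l1, Cenpa and Kif2c, were also 2-fold higher in p53-Dnmt1-null cells, where 0.0958% of all features passed both. Each side is 1 array against 1, and the difference in time course was not tested. The p53-Dnmt1-null 24 h array is also the one with the high 18S signal, and on it 40 of 40 other mitosis genes and 33 of 34 replication genes were below untreated (medians -1.51 and -1.22), while 13 housekeeping genes had a median of -0.07.

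**Figure D3:**
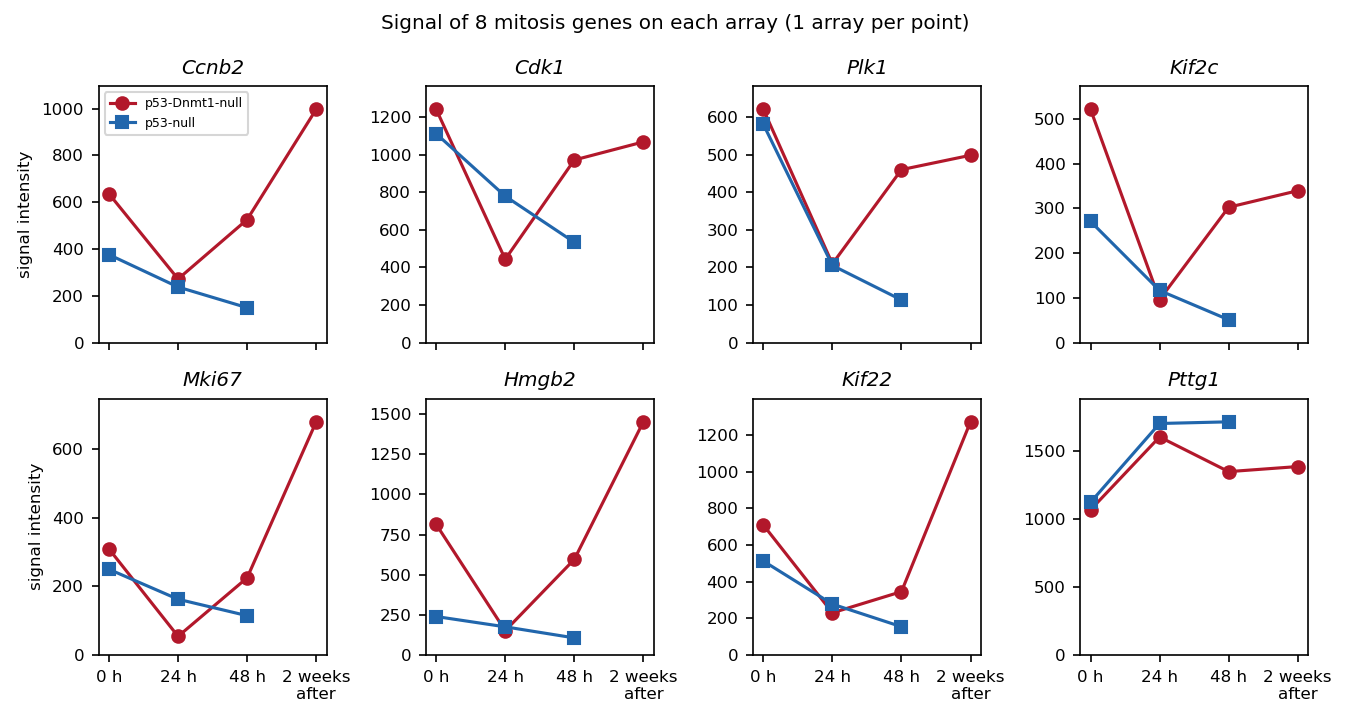
Signal intensity (y axis, linear, starting at 0) of 8 mitosis genes at 0, 24 and 48 h of TSA and 2 weeks after removal, in p53-Dnmt1-null cells (circles) and p53-null cells (squares), 1 array per point. In p53-Dnmt1-null cells 7 of the genes have their lowest value at 24 h, in p53-null cells at 48 h, and Pttg1 is higher with TSA in both.

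**Figure D4:**
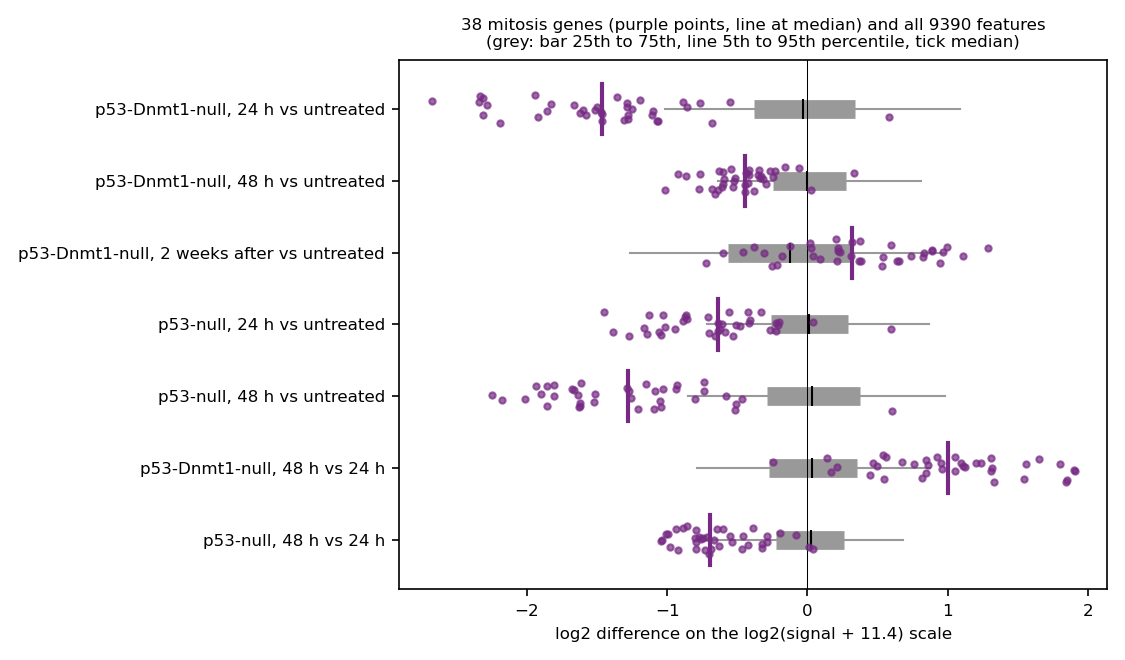
Log2 differences between pairs of arrays (x axis) for the 38 mitosis genes (points, with their median as a line) over the percentiles of all 9390 features (grey). The members' medians are -1.46, -0.44 and 0.32 against untreated in p53-Dnmt1-null cells and -0.64 and -1.28 in p53-null cells, and 1.01 and -0.69 for 48 h against 24 h.

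Whether TSA acted differently by genotype was tested as an interaction over 24 h and 48 h pooled, and 0 members were called, with 0 at an unadjusted p under 0.05 in either direction (limma, 1.34% and 1.76% of all features higher and lower). The members' median interaction was 0.11, which turned to -0.01 with the offset at the pooled median, and the largest values were 0.88 ± 0.72 for Plk1 and -0.91 ± 0.88 for Top2a (SE). This pooled test averages the 24 h and 48 h values, so the time courses themselves were not tested.

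Between genotypes, some mitosis genes were higher in p53-Dnmt1-null cells. In the additive model of genotype and time over 6 arrays, 9 of the 38 were called higher by limma and 0 lower, where 19.4% of all features were called higher and 19.4% lower; the members' share higher is near that of all features. The median was 0.70, against 0.04 for all features. Kif20a differed by 1.05 ± 0.30 (SE, limma adjusted p = 0.025), Incenp by 1.03 ± 0.29 (SE, limma adjusted p = 0.0211) and Hmgb2 by 1.29 ± 0.41 (SE, limma adjusted p = 0.0369). The others were Ccna2, Aurka, Racgap1, Ccnb2, Birc5 and Stmn1, at 1.05, 0.96, 0.96, 0.89, 0.87 and 0.44. Without the p53-Dnmt1-null 24 h array 28 members were called higher, where 18.5% of all features were. Without the p53-null 48 h array 0 were, where 11.8% of all features were, so the members' count depends on the times used. In this model an array without its partner at that time adds nothing to the genotype estimate. Each setting therefore equals leaving out the whole time and cannot single out 1 array. Cdk1, Mki67 and Bub3 were not called, at 0.07 ± 0.27, -0.07 ± 0.38 and -0.04 ± 0.15.

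The size of the difference varied between the times, with 1 array a side at each and no test of that variation. In untreated cells the members' median was 0.48, with 35 of 38 above 0, and 6 were at least 2-fold higher, against 9.44% of all features. These were Hmgb2, Top2a, Hmmr, Kif11, Mad2l1 and Bub1, from 1.72 down to 1.13. At 24 h of TSA the median was -0.23 and none was 2-fold higher, where 10.5% of all features were; Mki67 was 2-fold lower, at -1.40, against 11.7%. At 48 h the median was 1.72, 37 of 38 were above 0, and 27 were at least 2-fold higher, against 12.5% of all features, from Hmgb2 at 2.36 to Cks2 at 1.07. In all, 13 members were higher at each of the 3 times, against 35.1% of all features. The summed marker levels given above also separate the genotypes at all 3 times, and with 1 set of arrays per genotype the genotype and the culture cannot be told apart.

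**Figure D5:**
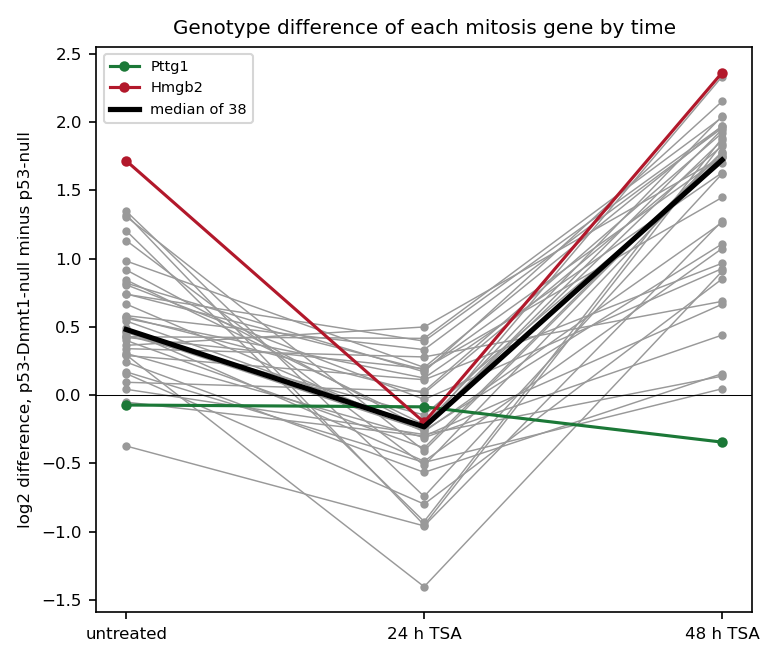
Log2 difference between p53-Dnmt1-null and p53-null cells (y axis) for each of the 38 mitosis genes (grey lines) at 0, 24 and 48 h of TSA (x axis), with the median in black. The median is 0.48, -0.23 and 1.72; Pttg1 stays below 0 at all 3 times.

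After TSA had been withdrawn for 2 weeks, most mitosis genes in p53-Dnmt1-null cells had signals above untreated, though none passed the test against it. Cenpe passed the floor through this array alone, so it had to be high here and is left out of the counts of this comparison, which cover the other 37. Over all 38 the signals ranged from 58.9% to 318% of untreated, with Cenpe the highest, and 26 of the 37 had their highest signal of all 7 arrays here, against 22.2% of all features. Mki67 read 679.8 after removal, against 309 untreated. Cenpe read 70.9 against 22.3, Mad2l1 1073.7 against 639.7, and Kif23 566.1 against 288.8. Not all were higher: Cdc25b read 152 against 257.9, Kif2c 339.4 against 521.4 and Plk1 499.1 against 621.6. Further probe sets of some genes went the other way from the tested probe set here, while those of others went the same way. A further Kif2c probe set read 280.1 against 255.1, and a further Aurkb probe set 307.2 against 115.4, where the tested Aurkb probe set was lower. For Tacc3, higher by the tested probe set, a further probe set read 33.9 against 82.8.

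Against untreated, 28 of the 37 were above 0 with a median of 0.31, where all features had a median of -0.13. Only Mki67 was at least 2-fold higher, at 1.11, against 4.65% of all features, and none was 2-fold lower, against 9.67%. By limma 0 were called, where 0.0106% of all features were called higher, and at an unadjusted p under 0.05 none was higher, where 5.76% of all features were. Against the mean of the TSA arrays, 5 of the 37 were called higher and 0 lower by limma, where 4.21% of all features were called higher and 7.52% lower; at an unadjusted p under 0.05, 20 were higher, where 13.7% of all features were. The 5 called were Mki67 at 2.47 ± 0.66 (SE, limma adjusted p = 0.04999), Kif23 at 2.14 ± 0.45, Kif22 at 2.13 ± 0.41, Ndc80 at 1.90 ± 0.38 and Ttk at 1.62 ± 0.39, with adjusted p between 0.0268 and 0.04999. Over the processing settings tried, the main one included, Mki67 was called in 5 of 10 (highest limma adjusted p = 0.115). Kif22 was called in 9 of 10, Kif23 in 8 of 10, and Ndc80 and Ttk each in 8 of 9. The test assumes that the single after-removal array varies like the 24 h and 48 h pairs, and without the filter on dim features 0 were called. Against untreated p53-null cells, 18 of the 37 were at least 2-fold higher after removal, where 14.5% of all features were, with Hmgb2 highest at 2.54; Ttk, which passed the floor on p53-Dnmt1-null arrays only, is among them.

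Other genes of the same machinery were set beside the members. Of 40 further mitosis genes above the floor, all had an averaged TSA difference below 0, with a median of -0.79 and 0 called by limma; Psrc1, Trip13 and Pkmyt1 were lowest at -1.42, -1.31 and -1.30. In p53-Dnmt1-null cells their medians were -1.51 and -0.35 at 24 h and 48 h, and in p53-null cells -0.46 and -0.92. Between genotypes 12 of the 40 were called higher and 0 lower, where 19.4% of all features were called each way. Cep55, which completes abscission, differed by 1.88 ± 0.45 (SE, limma adjusted p = 0.0115). Replication genes had medians of -1.22 and -0.53 in p53-Dnmt1-null cells and -0.83 and -1.30 in p53-null cells. Of 34, 22 were called higher in p53-Dnmt1-null cells, where 19.4% of all features were.

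Subunits of the anaphase-promoting complex and cohesin, which most cells express throughout the cycle, had a median TSA difference of -0.16 over 18 genes. That median pools times and genotypes. Summed over 19 genes with a probe set, their signal was 8176.2, 6125.6 and 7160.5 in p53-Dnmt1-null cells at 0, 24 and 48 h. In p53-null cells it was 7522.7, 6455.9 and 7108.8. Single genes varied at 24 h in p53-Dnmt1-null cells: Rad21 read 198.6 against 457 untreated, and Anapc13 627.8 against 626.8. Some of these genes were thus also lower on that array, and the cause was not tested. Of 16 regulators of the programme, 13 were below 0 with TSA, with a median of -0.41 and 0 called. Foxm1, which activates G2/M genes, read 303.1, 102.2 and 251 in p53-Dnmt1-null cells at 0, 24 and 48 h and 151.9 after removal, against 209.9, 125 and 76.5 in p53-null cells. Its lowest value lay at 24 h in p53-Dnmt1-null cells and at 48 h in p53-null cells, and 36 members likewise had the lower of their TSA values at these times. Mybl2 (B-Myb) read 100.5, 54.7 and 78.2 in p53-Dnmt1-null cells and 83.6, 34.7 and 25 in p53-null cells, and Rbl2 (p130), a pocket protein of the DREAM repressor, read 28.4, 29.9 and 44.3 in p53-Dnmt1-null cells and 72.4, 111.3 and 115.5 in p53-null cells. Rbl2 was lower in p53-Dnmt1-null cells, by -1.28 ± 0.21 (SE, limma adjusted p = 0.00208). It stayed below the floor on every p53-Dnmt1-null array and entered the test only through p53-null arrays, so its direction was set by the filter. Cdkn1a (p21), a CDK inhibitor that histone deacetylase inhibitors are known to raise, read 61.1, 162.2 and 43.4 in p53-Dnmt1-null cells at 0, 24 and 48 h and 34 after removal, against 106.4, 71.2 and 108.7 in p53-null cells. Cdkn1a was highest at 24 h in p53-Dnmt1-null cells, the array with the lowest mitosis signals of that genotype. In p53-null cells it was near its untreated value at 48 h. Its p53-Dnmt1-null signals at 48 h and after removal lay below the floor, and any link to the mitosis signals was not tested. Among CDK inhibitors and G1 cyclins, 6 of 12 were called lower in p53-Dnmt1-null cells, where 19.4% of all features were. Cdkn1c (p57) differed by -3.12 ± 0.47 (SE, limma adjusted p = 0.00128). Cdkn2a, which encodes p16 and p19Arf, differed by -1.15 ± 0.16 (SE, limma adjusted p = 0.000938).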

How the data were processed

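Expression was measured in 7 samples, 1 array per group. The deposited values are linear MAS5 signal intensities, as the authors' MAS5 is named per the submitters' processing notes; the deposited values have the same trimmed mean on every array, and the sources used here give neither its version nor the scaling target. Probe sets were named through the platform annotation, with symbols updated through Entrez identifiers to RefSeq (GRCm38.p6). Of 22690, 20393 had 1 symbol, 691 several and 1606 none. Probe sets with several symbols or none represented no gene. Those above the floor, control probe sets aside, were kept as unnamed features, 1092 in all. The probe set with the highest mean represented a gene. Signals were analysed as log2(signal + 11.4), so all folds are on that scale and understate changes of dim genes. Features above the pooled median of 45.6 on at least 1 array were kept: 9390, of which 8298 were named genes, with 64 control probe sets left out. Tests across features were made in R 4.3.3 with limma 3.58.1 (variance trend on intensity), and p-values were adjusted by Benjamini-Hochberg over all features, with a threshold of 0.05. TSA averaged over genotypes had 3 residual degrees of freedom, the genotype test and the fits within genotypes 2. Fits that left out arrays of a time had fewer. Pairs of arrays were called at 2-fold. The labels name no separate cultures; the error term is the scatter among single arrays at different times, technical or not. Precision is limited by having so few arrays. All 38 measured members are named; from each other list, at most the 3 largest changes each way, plus Dnmt1, Foxm1, Mybl2 and Cdkn1a. The members and lists were chosen with earlier results of these data known. Macrophage and endothelial marker lists had 3 of 10 and 2 of 8 genes above the floor. Of these, 3 and 0 were called higher in p53-Dnmt1-null cells, where 19.4% of all features were. Alternatives covered the offset, filter, scaling, trend, probe set rule and arrays used.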

Additional observations from a re-analysis of the deposited data

Results flagged for a closer look

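The time course with TSA went opposite ways in the genotypes. From 24 h to 48 h the members' median log2 difference was 1.01 in p53-Dnmt1-null cells and -0.69 in p53-null cells. By at least 2-fold each way, Mad2l1 differed by 1.802 in p53-Dnmt1-null cells and -1.005 in p53-null cells, Cenpa by 1.052 and -1.043, and Kif2c by 1.547 and -1.035. Each value compares 1 array with 1, and the difference between genotypes was not tested. The 18S rRNA control signal on the p53-Dnmt1-null arrays was 2549.1 at 24 h and 1292.1 at 48 h, against 337.5 and 228.7 on the p53-null arrays, and its part in the result was not tested.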

How the results depend on the processing

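The direction of the averaged TSA difference was kept for all 38 members under every offset, filter, scaling, trend, probe set rule and choice of arrays tried (32 members under the stricter filter), and none passed adjustment except with 1 time left out. Without the 24 h arrays 17 members were called lower, against 1.74% of all features, and without the 48 h arrays 11, against 0.628%. Both fits had fewer residual degrees of freedom than the pooled test. The genotype count of 9 became 0 with no filter, where 11.1% of all features were called higher, and 1 with no intensity trend, where 17.4% were. It became 28 without the 24 h arrays or without the p53-Dnmt1-null 24 h array alone, where 18.8% and 18.5% of all features were called higher, with a median of 1.08. It became 0 without the 48 h arrays or without the p53-null 48 h array alone, where 11.8% were in both, with a median of 0.20. Both single-array settings were added after seeing the data. They give the same genotype estimate as leaving out both arrays of that time, so they are not separate evidence. After removal against TSA, the count of 6 (5 without Cenpe) became 0 with no filter, where 14639 features were tested and 0 called. Members at least 2-fold lower at both TSA times numbered 1 in p53-Dnmt1-null cells and 10 in p53-null cells; with the offset at the pooled median 0 and 4, and with probe sets averaged 0 and 5. The median interaction of 0.11 turned to -0.012 with the offset at the pooled median, and was 0.23 with median centring and 0.0026 with probe sets averaged. The causes were not tested. In a window of 100 bases before to 50 after the start, TTTGAA was in 68.6% of the members' promoters and 8.08% of all promoters, and CCAAT in 77.1% and 24.0%. Over the 23 main counts and medians, 171 recomputed values kept their direction and size class, 19 differed and 1 turned in sign. No paired analysis was possible because each group holds 1 array and the labels give no replicate numbers; the genotype test matched arrays by time. Dim members (Cenpe, Ttk, Nek2, Ndc80) are limited by signal near the floor.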
